A study of Mus musculus with 10 samples.

Results

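The genes described here encode the proteins that copy DNA in S phase. They are 41 genes chosen by name for their role, from origin licensing and the replicative helicase through the polymerases and the sliding clamp to the enzymes that supply deoxynucleotides. Each was 1 of the 50600 gene entries in the tables, and all 41 were among the 14875 genes that passed the filter on low counts, with at least 42 counts in every library. They were measured by RNA-seq in 3 mouse models of acute myeloid leukemia (AML) and in WT bone marrow, 1 library per mouse, and levels are given in CPM, counts divided by the library total and put on a common scale, after TMM scaling, which adjusts library totals so that most genes keep a ratio near 1.

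Before a cell divides, the origin recognition complex with Cdc6 and Cdt1 loads rings of Mcm2 to Mcm7 onto DNA, and Cdc45 and the GINS proteins then join the rings to form the active helicase. Polymerases alpha, delta and epsilon copy the opened strands. The Pcna ring, which the Rfc complex loads, holds delta and epsilon in place, while Fen1 and Lig1 join the fragments of the lagging strand. In bone marrow these genes are active in dividing progenitors and are shut off as granulocytes mature, and many are controlled by the E2F transcription factors.

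MLL::AF9 tumors came from the spleens of 3 untreated mice with the genotype MLL-AF9 +/-, a transgenic line. MLL::ENL tumors came from the spleens of 3 untreated mice that had received progenitor cells infected with an MLL::ENL retrovirus together with WT marrow after lethal irradiation, so host and donor cells without the fusion can be present. Cbfb::MYH11 tumors came from the spleens of 2 mice of the genotype Mx+; Hygr+, given Poly IC at day 45 of life, in which Cre under the Mx-1 promoter switches on the fusion in blood cells and in other tissues that respond. The reference was bone marrow of 2 WT mice selected for cKit. All mice were C57BL/6. The selection label was Mac1/Gr1/cKIT for the MLL tumors, cKit+ for Cbfb::MYH11 27 and the WT cells, and "cKit_" for Cbfb::MYH11 30. Tissue, selection and the way the tumors were made therefore go with the group and cannot be told apart from the fusion in any comparison with WT. Between tumor models the way the tumors were made goes with the fusion too. Between MLL and Cbfb::MYH11 tumors the selection label and Poly IC also do, and cannot be told apart from it. In bulk RNA, fewer dividing cells and less RNA of these genes per cell cannot be told apart either.

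Library totals lay between 12134917 and 20510574 counts. Y-linked and Xist transcripts did not match the sex given for 4 of the 10 libraries: the numbers 42 and 47 are interchanged between the names of deposited MLL::AF9 tables, with 0 Ddx3y counts in 42, labelled male, and 909 in 47, labelled female, and MLL::ENL NO and RL, labelled female, had 387 and 911 Ddx3y counts. None of this moves a library to another group. By these transcripts, however, sex nearly goes with the group. Ddx3y had 0 to 2 counts and Xist 428 to 16558 in the WT and Cbfb::MYH11 libraries. In the MLL libraries except MLL::AF9 42, Ddx3y had 279 to 911 counts and Xist 5 to 27. The part of sex in any comparison was not tested. Hemoglobin made up 14.4% of WT 1, 3.98% of WT 2 and no more than 0.958% of any tumor library. S100a8 with S100a9, genes of neutrophils, took 7.08% in MLL::AF9 2, and 5.22% and 3.72% in WT 1 and 2.

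The promoter sequences are shown because E2F letters, which the selection by role did not use, were found in a larger share of them than of all promoters. Promoter windows of 300 bases, from 250 before to 50 after the start site (RefSeq, GRCm38.p6), were found for 34 members and searched on both strands for the E2F letters TTTCCCGC, TTTGGCGC, TTTCGCGC and TTTGCCGC. A match was present in 14 of 34 members (41.2%), against 704 of 27025 genes with a window (2.6%), 9 of 34 other replication genes (26.5%) and 1 of 20 mitosis genes (5%). The stretches of the helicase subunits Mcm3, Mcm5 and Mcm6, of the clamp loader subunit Rfc3, and of Orc1 and Pola1, which passed a test below, are given with the matches in capitals; the first 4 hold several matches, overlapping on opposite strands in Mcm5 and Mcm6.
Mcm3 chr1:20820263-20820308, minus strand: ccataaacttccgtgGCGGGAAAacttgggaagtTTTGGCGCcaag
Mcm5 chr8:75109341-75109382, plus strand: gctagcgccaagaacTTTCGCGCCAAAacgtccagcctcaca
Mcm6 chr1:128359730-128359830, minus strand: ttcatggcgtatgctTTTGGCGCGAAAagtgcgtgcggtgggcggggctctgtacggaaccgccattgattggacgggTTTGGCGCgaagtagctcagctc
Rfc3 chr5:151651186-151651233, minus strand: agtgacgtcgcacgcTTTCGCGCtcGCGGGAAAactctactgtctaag
Orc1 chr4:108579412-108579449, plus strand: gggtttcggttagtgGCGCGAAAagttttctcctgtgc
Pola1 chrX:93632271-93632308, minus strand: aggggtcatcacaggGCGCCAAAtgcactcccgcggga

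The other matches were in Mcm7, Cdc6, Cdt1, Gins3, Pold1, Pold3, Pole2 and Lig1. The CHR letters TTTGAA, a mark of promoters of mitosis genes, were found in 5 of 34 members (14.7%), 15 of 20 mitosis genes (75%) and 20.2% of all genes with a window. The CCAAT letters were in 61.8% of members and 41.1% of all genes, and the GC box letters GGGCGG in 76.5% and 38.2%. Rfc4, the member that passed in the most comparisons, holds none of the E2F letters and 1 GC box. Its window is printed for that contrast, with no capitals.
Rfc4 chr16:23127681-23127980, minus strand: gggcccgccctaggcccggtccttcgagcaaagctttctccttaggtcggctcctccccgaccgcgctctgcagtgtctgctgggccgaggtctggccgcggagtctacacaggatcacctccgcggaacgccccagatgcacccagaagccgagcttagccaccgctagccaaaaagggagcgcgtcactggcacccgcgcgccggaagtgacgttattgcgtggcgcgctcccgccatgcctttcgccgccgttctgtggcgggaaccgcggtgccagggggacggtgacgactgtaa

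Of 9 members with a window that passed a test in some comparison, 2 held a match. In MLL::AF9 tumors over WT cKit+ cells the median log2 fold change was −0.71 for the 14 members with a match and −1.02 for the 20 without. In MLL::ENL tumors over WT these medians were −0.26 and −0.62, and in Cbfb::MYH11 tumors over WT −0.21 and −0.24. A match is a run of letters and not a measured binding site.

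Together the 41 genes made up 0.200%, 0.579% and 0.355% in MLL::AF9 2, 47 and 42, 0.359%, 0.604% and 0.551% in MLL::ENL NO, RL and L, 0.676% and 0.605% in Cbfb::MYH11 30 and 27, and 0.480% and 0.599% in WT 1 and 2, as shares of all counts. The lowest and highest MLL::AF9 tumors were farther apart than the WT libraries. MLL::AF9 2 had the lowest level of all 10 libraries for 30 of 41 members, and within the MLL::AF9 tumors 47 was highest for 39 of 41.

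**Figure D1:**
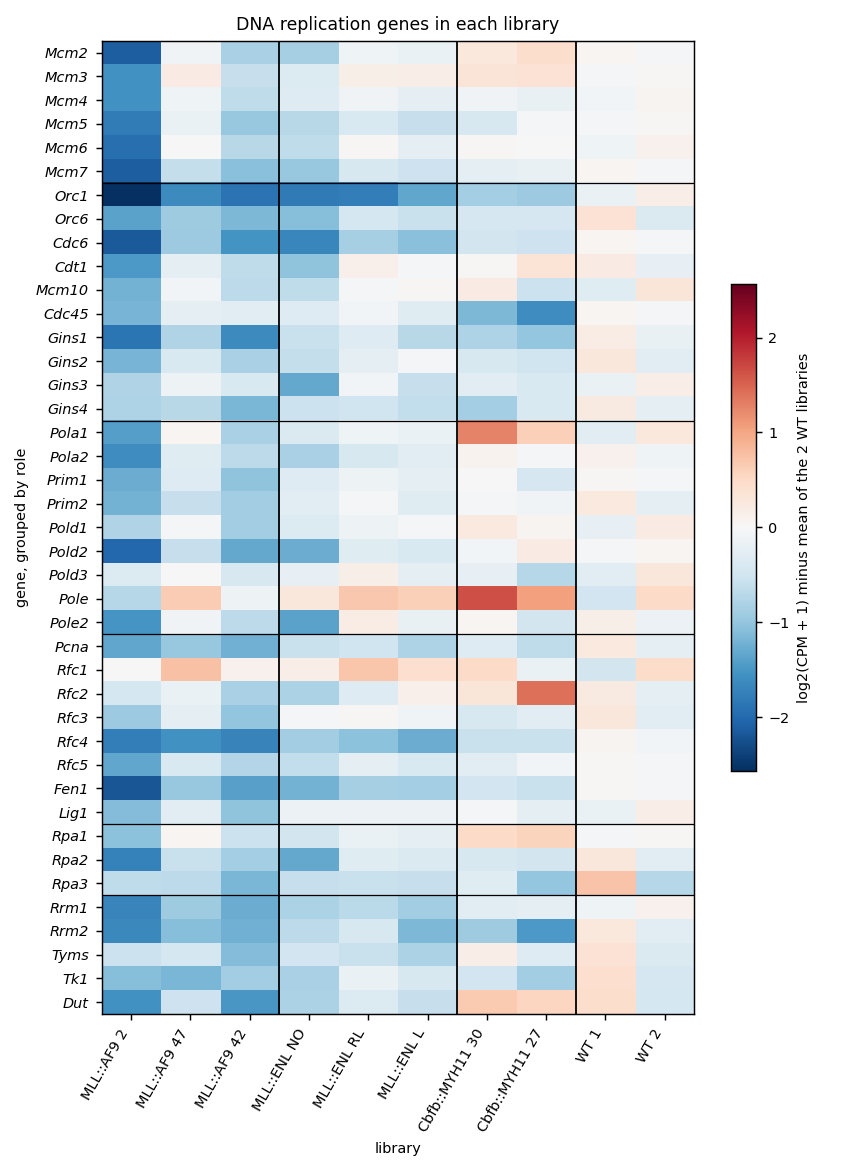
Color gives log2(CPM + 1) of each of the 41 genes (rows, grouped by role) in each library (columns) minus the mean of both WT libraries. The column of MLL::AF9 2 is the darkest blue, with the lowest level of 30 members, while Pole, Pola1 and Rfc2 are red in Cbfb::MYH11 tumors.

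MLL::AF9 2 also had the highest sums of neutrophil and lymphocyte markers among the tumors. Single neutrophil markers were not alike. S100a8 (37027 CPM) and Ltf (13322 CPM) were higher there than in any other tumor. Elane (584 CPM) and Prtn3 (483 CPM) were lower there than in any other MLL tumor. WT 1, with the highest mean replication level, had a like neutrophil marker sum of 151105 CPM. The 16 neutrophil markers summed to 165381, 25956 and 48267 CPM in MLL::AF9 2, 47 and 42, and the 12 B, T and NK cell markers to 1286, 58.9 and 320 CPM. Their part in the low replication transcripts of that library was not tested, and the main counts and medians are also given without it.

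Compared per transcript length (TPM), Pcna was the most abundant member with a median of 352 TPM over the 10 libraries, and Orc1 the least with 3.61 TPM. Mcm2 to Mcm7, which form a ring in equal numbers, lay within 2.94-fold to 4.09-fold of each other in each library. Cdc45, their partner in the helicase, was at 9.75% to 13.4% of the mean Mcm level in Cbfb::MYH11 tumors, against 29.4% to 32.4% in WT cKit+ cells. In the MLL tumors it was at 29.9% to 47.01%. This ratio is within a library and so does not depend on how libraries are scaled.

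To ask how each model differed from the reference, each was compared with WT cKit+ cells by edgeR's quasi-likelihood test. Kit itself was at 65.6 and 88.6 CPM in WT 1 and 2, and at 31.3 to 119 CPM in MLL tumors. In Cbfb::MYH11 30 and 27 Kit was at 187 and 290 CPM. The neutrophil marker Ly6g was at 333 and 204 CPM in WT 1 and 2, so the reference need not be progenitors alone. In MLL::AF9 tumors the median log2 fold change of the members was −0.80, against 0.08 over all genes tested, and 40 of 41 lay below 0. Orc1, Pcna, Rfc4, Fen1 and Rrm1 fell at an adjusted p under 0.05, which is 12.2% of the members against 2.03% of all genes lower. No member rose (0.78% of all genes did), with 0 higher at an unadjusted p under 0.05 and likewise 0 by DESeq2 or limma. In all, 24 members (58.5%) had an unadjusted p under 0.05 against 24.5% of all genes, and in 27 (65.9%) the 3 tumors lay below both WT libraries, against 21.2% of all genes. Without MLL::AF9 2 the member median was −0.62, against 0.03 over all genes, and 3 members fell, against 1.72% of genes lower. An unadjusted p under 0.05 was then reached by 17 members against 25.2% of genes, and the remaining tumors lay below both WT libraries in 27 members against 29.2% of genes.

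In MLL::ENL tumors the median was −0.42, against 0.02 over all genes. Rfc4 alone fell (2.44% of members against 1.56% of genes lower), and none rose, against 0.578% of genes. An unadjusted p under 0.05 was reached by 9 members (22%), the same as the share of all genes (22%), with 0 of them higher and 0 higher by DESeq2 or limma. In 22 members (53.7%) the tumors lay below both WT libraries, against 23.1% of all genes.

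In Cbfb::MYH11 tumors the median was −0.21, against −0.01 over all genes. Cdc45 alone fell (2.44% of members against 6.88% of genes lower). None rose by edgeR, against 3.54% of genes, while 1 had a higher level at an unadjusted p under 0.05 and DESeq2 called 1 (7.91% of genes) and limma 0. An unadjusted p under 0.05 was reached by 5 members (12.2%) against 27.4% of all genes. The tumors lay below both WT libraries in 19 members (46.3% against 31.9% of genes) and above both in 7 (17.1% against 28.8% of genes).

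These directions depend on the scaling. The mean log2 level of the members in MLL::AF9 tumors minus WT was −0.90 with TMM, −0.59 with plain library totals and −0.21 in TPM. In MLL::ENL tumors minus WT it was −0.45 and −0.10 but 0.25 in TPM, and in Cbfb::MYH11 tumors minus WT it was −0.18 but 0.17 and 0.48 on the other scales. Plain totals moved the median of all genes in these comparisons to between 0.24 and 0.26, and TPM to between 0.43 and 0.46. Relative to that median the members' median was −0.81 with plain totals and −0.67 in TPM for MLL::AF9, −0.37 and −0.19 for MLL::ENL, and −0.11 and 0.01 for Cbfb::MYH11.

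Which members passed also depended on single libraries. The 5 members lower in MLL::AF9 tumors became 0 without WT 1, and 1 when WT 2, MLL::AF9 42 or MLL::ENL RL was left out. They became 2 without Cbfb::MYH11 30, Cbfb::MYH11 27 or MLL::ENL L, and 3 without MLL::AF9 2. With only the MLL::AF9 and WT libraries in the fit 1 member passed, and with plain library totals 0. DESeq2 called 14 lower, against 6.35% of all genes lower by that tool. Limma called 8, against 3.8% of genes, and edgeR without the filter 8, against 1.53%. The member lower in MLL::ENL tumors became 4 members when MLL::AF9 2 was left out (3.21% of genes), 2 when 47 was, and 0 without any 1 of the other libraries. The member lower in Cbfb::MYH11 tumors became 0 without WT 1, WT 2, Cbfb::MYH11 30, Cbfb::MYH11 27, MLL::ENL RL or MLL::ENL L, and 2 without MLL::AF9 2.

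**Figure D2:**
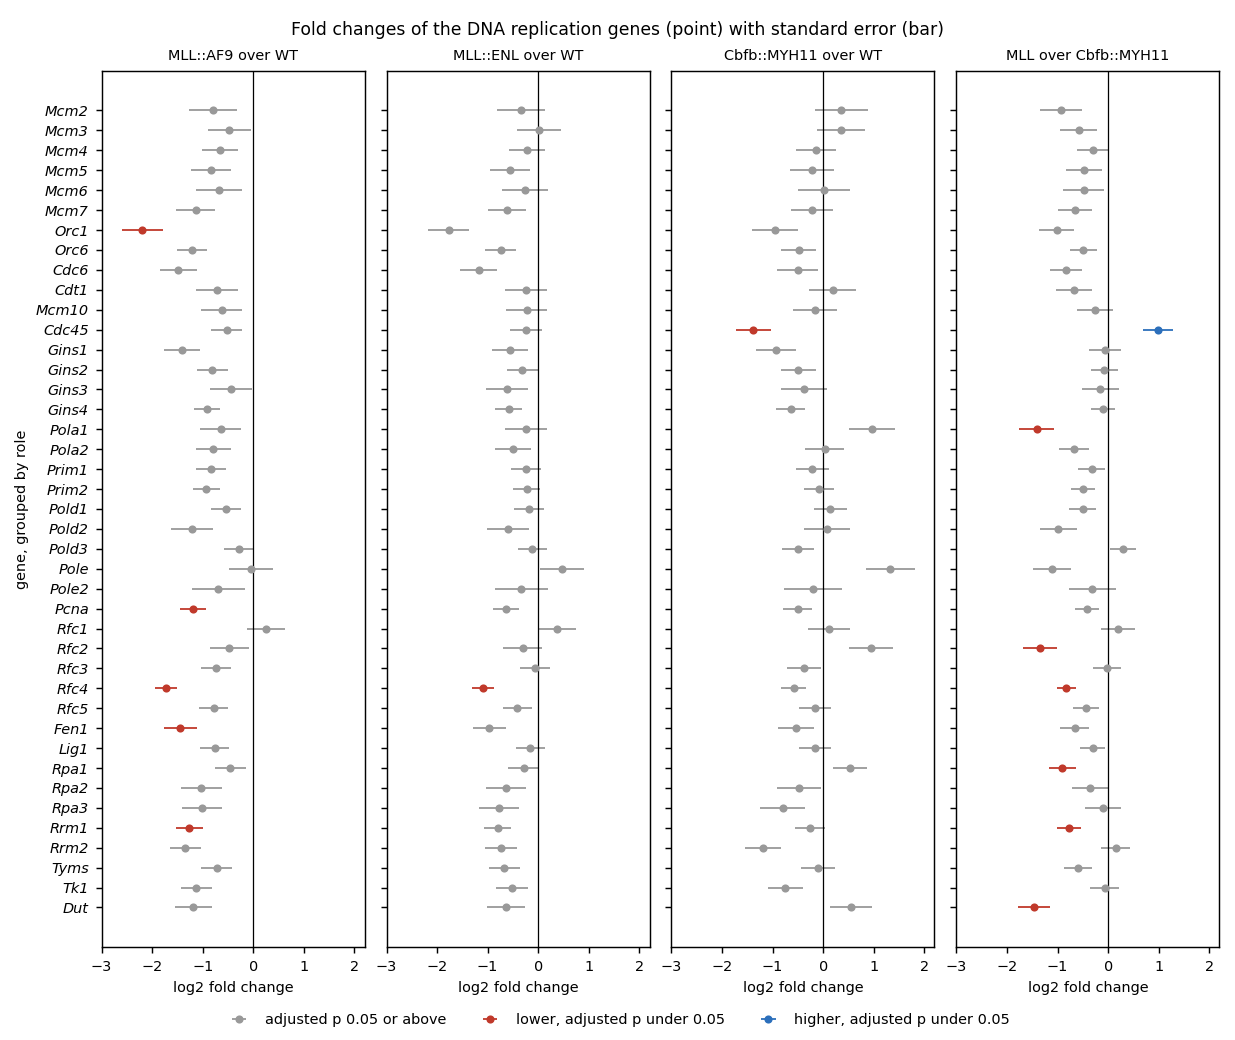
Points are log2 fold changes from edgeR with TMM scaling and bars are standard errors, for 41 genes (rows) in 4 comparisons (panels). Against WT the members center on −0.80 in MLL::AF9, −0.42 in MLL::ENL and −0.21 in Cbfb::MYH11 tumors, and the sign of the mean level turns in TPM for MLL::ENL and Cbfb::MYH11. Colored points passed at an adjusted p under 0.05.

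The MLL::AF9 and MLL::ENL tumors were compared to ask how alike both MLL models are. No member passed by edgeR, against 0.0134% of all genes in either direction, with 0 by DESeq2 and 0 by limma. The member median was −0.44 and 40 of 41 lay lower in MLL::AF9 tumors, with 6 members (14.6%) at an unadjusted p under 0.05 against 10.1% of all genes. The mean log2 level in MLL::AF9 minus MLL::ENL tumors was −0.46 with all libraries and −0.23 without MLL::AF9 2. Without that library the member median was −0.19, and 1 member had an unadjusted p under 0.05, against 7.72% of genes.

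The MLL tumors together were compared with Cbfb::MYH11 tumors, a comparison in which all libraries are spleen tumors. Selection label, Poly IC and the way the tumors were made still went with the group. Pola1, Rfc2, Rfc4, Rpa1, Rrm1 and Dut fell, which is 14.6% of members against 12.5% of all genes lower. Cdc45 rose, 2.44% of members against 13.2% of genes higher. The member median was −0.48, against 0.08 over all genes, and 13 members (31.7%) had an unadjusted p under 0.05 against 38.9% of all genes. In 18 members (43.9%) the 6 MLL tumors lay below both Cbfb::MYH11 tumors, against 20.4% of genes, and in 0 members above them, against 19.5% of genes. The mean log2 level in MLL minus Cbfb::MYH11 tumors kept its sign on all scales, at −0.50 with TMM, −0.52 with plain totals and −0.46 in TPM. The count of members lower dropped to 1 when either Cbfb::MYH11 tumor was left out (30 or 27). Leaving out MLL::AF9 47 gave 12 and leaving out MLL::AF9 2 gave 7, each against 13% of all genes lower. DESeq2 called 10, against 15.1% of genes lower by that tool, and plain library totals left 2.

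Among the 6 helicase subunits Mcm2 to Mcm7 none passed by edgeR or limma in any comparison. DESeq2 called 1 lower in MLL::AF9 tumors and 0 elsewhere, and 1 had an unadjusted p under 0.05 there and 1 in MLL over Cbfb::MYH11 tumors. Their medians were −0.74, −0.30 and −0.06 in the MLL::AF9, the MLL::ENL and the Cbfb::MYH11 tumors over WT. Mcm2, on chromosome 6 from 88883474 to 88898780, was the first of them. Its level was 69.4, 287 and 171 CPM in MLL::AF9 2, 47 and 42, against 316 and 295 CPM in WT 1 and 2. In MLL::ENL NO, RL and L it was at 168, 283 and 271 CPM, and in Cbfb::MYH11 30 and 27 at 368 and 417 CPM. On this scale every MLL tumor was below WT and both Cbfb::MYH11 tumors were above it, but the spread among MLL tumors was wide. In TPM 2 of the 6 MLL tumors were below both WT libraries and 3 were above both. The log2 fold changes over WT were −0.80 ± 0.48, −0.34 ± 0.48 and 0.36 ± 0.53 (SE) for the MLL::AF9, the MLL::ENL and the Cbfb::MYH11 tumors, with adjusted p of 0.33, 0.71 and 0.71 from edgeR. With plain library totals the MLL::ENL value turned to 0.046.

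The loading and activation genes are Orc1 and Orc6 of the origin recognition complex, the loaders Cdc6 and Cdt1, Mcm10, which acts as the helicase starts, Cdc45 and Gins1 to Gins4. In both MLL models all 10 had a negative log2 fold change over WT, with medians of −0.86 in MLL::AF9 tumors and −0.58 in MLL::ENL tumors, and 1 passed in MLL::AF9 tumors. In Cbfb::MYH11 tumors 9 of 10 were negative over WT, with a median of −0.50, and 1 passed. Of the 14875 genes tested, 6882 and 7227 had a negative log2 fold change in MLL::AF9 and MLL::ENL tumors over WT.

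Orc1, the subunit that binds ATP in the origin recognition complex, lies on chromosome 4 from 108579423 to 108614833. It was at 2.97, 6.58 and 5.28 CPM in MLL::AF9 2, 47 and 42, against 19.7 and 25.6 CPM in WT 1 and 2. It was at 5.66, 5.91 and 8.34 CPM in MLL::ENL NO, RL and L, and at 11.9 and 11.4 CPM in Cbfb::MYH11 30 and 27. All 8 tumors lay below WT, the MLL tumors farthest, while in TPM 4 tumors, all MLL, were below both WT libraries and none was above both. It fell in MLL::AF9 tumors, to 4.95 ± 1.83 CPM (SD, n = 3) against 22.7 ± 4.13 CPM (SD, n = 2) in WT, a log2 fold change of −2.19 ± 0.41 (SE, adjusted p = 0.030 from edgeR), and without MLL::AF9 2 the adjusted p was 0.041. The call was lost without WT 1 (adjusted p = 0.19), WT 2 (0.11), MLL::AF9 42 (0.076) or MLL::ENL RL (0.0503) by edgeR. In MLL::ENL tumors its log2 fold change was −1.77 (adjusted p = 0.057 from edgeR). Cdc6 had log2 fold changes of −1.48 in MLL::AF9 tumors over WT and −1.18 in MLL::ENL tumors, short of the threshold (adjusted p of 0.057 and of 0.11 by edgeR).

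Cdc45, on chromosome 16 from 18780447 to 18811987, set the Cbfb::MYH11 tumors apart. It was at 33.4 and 24.3 CPM in Cbfb::MYH11 30 and 27, against 77.5 and 72.6 CPM in WT 1 and 2. In MLL::AF9 2, 47 and 42 it was at 32.0, 62.6 and 61.4 CPM, and in MLL::ENL NO, RL and L at 59.4, 71.1 and 60.1 CPM. The Cbfb::MYH11 tumors were low together, below both WT libraries in TPM too, and of the MLL tumors MLL::AF9 2 alone overlapped them. Cdc45 fell in Cbfb::MYH11 tumors over WT (log2 fold change −1.38 ± 0.35 SE, adjusted p = 0.035 from edgeR). It was higher in MLL tumors, at 57.8 ± 13.3 CPM (SD, n = 6), than in Cbfb::MYH11 tumors, at 28.9 ± 6.38 CPM (SD, n = 2), with a log2 fold change of 0.99 ± 0.30 (SE, adjusted p = 0.035 from edgeR), and 1.09 (adjusted p = 0.0074 from edgeR) without MLL::AF9 2. Over WT the call was lost without WT 1, WT 2, Cbfb::MYH11 30, Cbfb::MYH11 27, MLL::ENL RL or L, at adjusted p of 0.051 to 0.21 from edgeR, and over Cbfb::MYH11 tumors it was lost without any 1 of these or MLL::AF9 42 (0.052 to 0.28). Of the exonic bases of Cdc45, 5.96% overlap Ufd1 on the other strand, which was at 31.3 to 60.1 CPM.

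**Figure D3:**
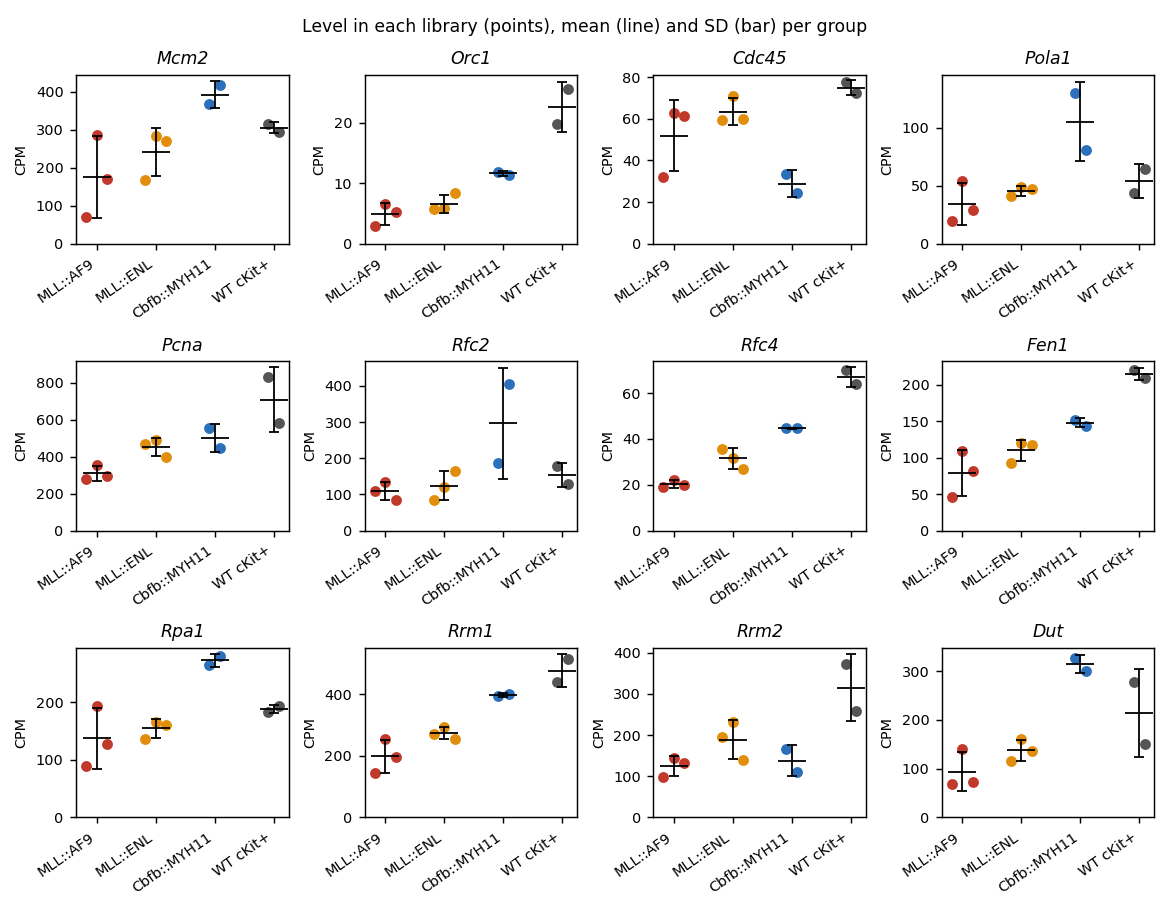
CPM of 12 genes in each library (points) with the group mean (line) and SD (bar), for 3 MLL::AF9, 3 MLL::ENL, 2 Cbfb::MYH11 and 2 WT libraries, each axis starting at 0. On this scale, CPM with TMM, Rfc4 and Fen1 are below WT in all 8 tumors and Rpa1 is highest in Cbfb::MYH11 tumors, which TPM does not show for every library. Cdc45 is low in Cbfb::MYH11 tumors at 24.3 and 33.4 CPM.

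The polymerase and primase genes are Pola1 and Pola2 of polymerase alpha with the primase subunits Prim1 and Prim2, Pold1 to Pold3 of polymerase delta and Pole and Pole2 of polymerase epsilon. None passed against WT by edgeR or limma, with 4 at an unadjusted p under 0.05 in MLL::AF9, 0 in MLL::ENL and 1 in Cbfb::MYH11 tumors. Of all genes 24.5%, 22% and 27.4% had an unadjusted p under 0.05. DESeq2 called 1 lower in MLL::AF9 and 1 higher in Cbfb::MYH11 tumors. The member with the highest value over WT was Pole, the catalytic subunit of the leading strand polymerase, with a log2 fold change of 1.33 ± 0.48 in Cbfb::MYH11 tumors (SE, adjusted p = 0.11 from edgeR).

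Pola1, the catalytic subunit of the polymerase that extends primers, lies on the X chromosome from 93304767 to 93632155. It was at 19.4, 54.5 and 29.4 CPM in MLL::AF9 2, 47 and 42 and at 40.8, 49.3 and 46.98 CPM in MLL::ENL NO, RL and L. In Cbfb::MYH11 30 and 27 it was at 130 and 81.0 CPM, against 43.4 and 64.4 CPM in WT 1 and 2. The Cbfb::MYH11 tumors were above every other library, also in TPM. It was lower in MLL tumors, at 40.0 ± 13.3 CPM (SD, n = 6), than in Cbfb::MYH11 tumors, at 105 ± 34.4 CPM (SD, n = 2), with a log2 fold change of −1.41 ± 0.34 (SE, adjusted p = 0.015 from edgeR). It no longer passed without Cbfb::MYH11 30 (log2 fold change −1.03, adjusted p = 0.17) or with plain library totals (0.056). Its log2 fold change in Cbfb::MYH11 tumors over WT was 0.97. Pola1 is X-linked and sex by transcript nearly goes with the MLL and Cbfb::MYH11 groups, and the part of sex was not tested.

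Of the clamp, its loader and the lagging strand enzymes, 3 of 8 fell in MLL::AF9 tumors over WT and 1 fell in MLL::ENL tumors. Of all genes 2.03% and 1.56% fell in these comparisons. In Cbfb::MYH11 tumors edgeR called 0, with 1 at an unadjusted p under 0.05 and 0 by DESeq2 or limma. Pcna, the clamp, on chromosome 2 from 132249162 to 132253314, was at 277, 355 and 294 CPM in MLL::AF9 2, 47 and 42, against 832 and 582 CPM in WT 1 and 2. In MLL::ENL NO, RL and L it was at 466, 491 and 400 CPM, and in Cbfb::MYH11 30 and 27 at 553 and 445 CPM. With TMM all 8 tumors were below WT 2, the lower WT library, while in TPM 3 of 8 were below both WT libraries and 2 were above both. It fell in MLL::AF9 tumors (log2 fold change −1.19 ± 0.26 SE, adjusted p = 0.044 from edgeR), and without MLL::AF9 2 the log2 fold change was −1.12 (adjusted p = 0.066 from edgeR). Without WT 1 the adjusted p was 0.33, and leaving out any 1 library except MLL::ENL NO put it above 0.05. Over WT the log2 fold changes were −0.64 and −0.50 in MLL::ENL and Cbfb::MYH11 tumors (adjusted p = 0.19 and 0.30 from edgeR).

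Rfc4, a small subunit of the clamp loader, lies on chromosome 16 from 23113943 to 23127737. It was at 18.8, 22.2 and 19.7 CPM in MLL::AF9 2, 47 and 42, against 69.9 and 63.9 CPM in WT 1 and 2. In MLL::ENL NO, RL and L it was at 35.7, 31.9 and 26.9 CPM, and in Cbfb::MYH11 30 and 27 at 44.6 and 44.8 CPM. With TMM the 4 groups did not overlap, in the order MLL::AF9, MLL::ENL, Cbfb::MYH11 and WT. In TPM they did, with 5 of 8 tumors below both WT libraries, but every MLL tumor was still below both Cbfb::MYH11 tumors. It fell over WT in MLL::AF9 tumors, to 20.2 ± 1.75 CPM (SD, n = 3) against 66.9 ± 4.28 CPM (SD, n = 2) in WT, with a log2 fold change of −1.72 ± 0.22 (SE, adjusted p = 0.0071 from edgeR). In MLL::ENL tumors over WT the log2 fold change was −1.09 ± 0.22 (SE, adjusted p = 0.042 from edgeR). It was lower in MLL than in Cbfb::MYH11 tumors, at 25.9 ± 6.87 CPM (SD, n = 6) against 44.7 ± 0.18 CPM (SD, n = 2), with a log2 fold change of −0.82 ± 0.19 (SE, adjusted p = 0.012 from edgeR). The MLL::AF9 call was lost without WT 1 (adjusted p = 0.073 from edgeR) and with plain library totals (0.067). The MLL::ENL call was kept without MLL::AF9 2 or 47 and lost without any 1 of the other 8 libraries (adjusted p of 0.053 to 0.27 from edgeR), with plain totals (0.22), without the filter (0.068) and with only those groups in the fit (0.055). The call over Cbfb::MYH11 tumors was lost without Cbfb::MYH11 30 (0.074), without 27 (0.098) and with plain totals (0.053). Of its exonic bases 12.7% overlap Eif4a2 on the other strand, and Eif4a2 was at 78.8 to 199 CPM in MLL tumors, 98.5 and 45.4 CPM in Cbfb::MYH11 30 and 27, and 90.2 and 69.6 CPM in WT 1 and 2.

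Rfc2, another small subunit of the clamp loader, on chromosome 5 from 134581366 to 134601805, was at 111, 135 and 85.0 CPM in MLL::AF9 2, 47 and 42, and at 85.4, 120 and 166 CPM in MLL::ENL NO, RL and L. It was at 188 and 404 CPM in Cbfb::MYH11 30 and 27, against 177 and 129 CPM in WT 1 and 2. Cbfb::MYH11 27 stood above every other library. The log2 fold change in MLL over Cbfb::MYH11 tumors was −1.34 ± 0.33 (SE, adjusted p = 0.015 from edgeR), and without Cbfb::MYH11 27 it was −0.69 (adjusted p = 0.32 from edgeR). Of its exonic bases 15.1% overlap Lat2, an adaptor protein gene of myeloid and B cells, on the other strand, and Lat2 was at 13.8 to 75.7 CPM in MLL tumors, 12.5 and 41.9 CPM in Cbfb::MYH11 30 and 27, and 12.3 and 6.94 CPM in WT 1 and 2.

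Fen1, the nuclease that removes flaps from lagging strand fragments, on chromosome 19 from 10199132 to 10204169, was at 46.3, 109 and 81.7 CPM in MLL::AF9 2, 47 and 42, against 221 and 209 CPM in WT 1 and 2. It was at 92.7, 119 and 117 CPM in MLL::ENL NO, RL and L, and at 152 and 144 CPM in Cbfb::MYH11 30 and 27. With TMM all 8 tumors were below WT and every MLL tumor was below the Cbfb::MYH11 tumors, while in TPM 3 of 8 tumors were below both WT libraries and 4 of 6 MLL tumors below both Cbfb::MYH11 tumors. It fell in MLL::AF9 tumors (log2 fold change −1.44 ± 0.33 SE, adjusted p = 0.049 from edgeR), and without MLL::AF9 2 the log2 fold change was −1.18 (adjusted p = 0.047 from edgeR). It kept the call without MLL::AF9 2 or 47 and lost it without any 1 of the other libraries (adjusted p of 0.051 to 0.31 from edgeR). An antisense gene, Gm10143, covers 78.8% of its exonic bases and was at 1.28 to 7.98 CPM. Whether counting used strand was not given in the sources used here, so reads of the members and of overlapping genes on the other strand cannot be told apart.

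Rpa1, Rpa2 and Rpa3 form the complex that coats single-stranded DNA. None passed over WT by edgeR, with 2 at an unadjusted p under 0.05 in MLL::AF9 and 0 in MLL::ENL or Cbfb::MYH11 tumors, and 0 by DESeq2 and limma. Rpa1, on chromosome 11 from 75298166 to 75348324, was at 90.0, 194 and 128 CPM in MLL::AF9 2, 47 and 42, and at 136, 166 and 161 CPM in MLL::ENL NO, RL and L. It was at 265 and 280 CPM in Cbfb::MYH11 30 and 27, against 183 and 193 CPM in WT 1 and 2. With TMM the Cbfb::MYH11 tumors were above every other library, while in TPM 1 of them was. The log2 fold change in MLL over Cbfb::MYH11 tumors was −0.90 ± 0.26 (SE, adjusted p = 0.032 from edgeR), and −0.82 (adjusted p = 0.022 from edgeR) without MLL::AF9 2. The call was lost when Cbfb::MYH11 30 or 27, MLL::AF9 42, or MLL::ENL RL or L was left out, at adjusted p of 0.053 to 0.19 from edgeR, and with plain totals (0.13). Rpa3, the shortest member by deposited length, differed most between the WT libraries, with 99.7 CPM in WT 1 and 35.8 CPM in WT 2.

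The enzymes of deoxynucleotide supply are the ribonucleotide reductase subunits Rrm1 and Rrm2, the thymidylate synthase gene Tyms, the thymidine kinase gene Tk1, and Dut, which removes dUTP. All 5 had an unadjusted p under 0.05 in MLL::AF9 tumors over WT, with a median log2 fold change of −1.19, and 1 passed after adjustment. Of all genes 24.5% had an unadjusted p under 0.05 in that comparison. The medians over WT were −0.67 in MLL::ENL and −0.26 in Cbfb::MYH11 tumors, where edgeR and limma called 0. There, 2 and 1 had an unadjusted p under 0.05, and DESeq2 called 1 lower in each.

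Rrm1, the large subunit of ribonucleotide reductase, on chromosome 7 from 102441695 to 102469771, was at 146, 253 and 196 CPM in MLL::AF9 2, 47 and 42, against 439 and 514 CPM in WT 1 and 2. In MLL::ENL NO, RL and L it was at 270, 294 and 256 CPM, and in Cbfb::MYH11 30 and 27 at 393 and 402 CPM. With TMM the MLL tumors were all lowest and the Cbfb::MYH11 tumors lay between them and WT, while in TPM 5 of 6 MLL tumors were below both Cbfb::MYH11 tumors and 2 of 8 tumors below both WT libraries. It fell in MLL::AF9 tumors over WT (log2 fold change −1.27 ± 0.27 SE, adjusted p = 0.042 from edgeR). It was lower in MLL than in Cbfb::MYH11 tumors (log2 fold change −0.77 ± 0.23 SE, adjusted p = 0.035 from edgeR). Without MLL::AF9 2 these were −1.09 (adjusted p = 0.054 from edgeR) and −0.71 (0.031). The MLL::AF9 call was kept only without MLL::AF9 47 or MLL::ENL NO, with adjusted p up to 0.21 without WT 1. The other was lost when Cbfb::MYH11 30 or 27, MLL::AF9 42, or MLL::ENL RL or L was left out (0.058 to 0.20), without the filter (0.066) and with plain totals (0.14).

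Rrm2, the small subunit that sets the enzyme's activity in S phase, on chromosome 12 from 24708241 to 24714146, was at 98.4, 144 and 131 CPM in MLL::AF9 2, 47 and 42, against 372 and 259 CPM in WT 1 and 2. In MLL::ENL NO, RL and L it was at 194, 233 and 139 CPM, and in Cbfb::MYH11 30 and 27 at 165 and 111 CPM. With TMM all 8 tumors were below both WT libraries, while in TPM 5 were and 1 was above both. The log2 fold changes over WT of −1.34 ± 0.31 in MLL::AF9, −0.74 ± 0.32 in MLL::ENL and −1.19 ± 0.35 in Cbfb::MYH11 tumors (SE) did not reach the threshold (adjusted p = 0.053, 0.21 and 0.061 from edgeR). DESeq2 gave adjusted p of 0.0026 in MLL::AF9 and 0.013 in Cbfb::MYH11 tumors, and limma 0.042 in MLL::AF9.

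Dut, which keeps uracil out of DNA by hydrolyzing dUTP, on chromosome 2 from 125247190 to 125258608, was at 69.1, 141 and 72.0 CPM in MLL::AF9 2, 47 and 42, and at 116, 160 and 136 CPM in MLL::ENL NO, RL and L. It was at 328 and 301 CPM in Cbfb::MYH11 30 and 27, against 278 and 150 CPM in WT 1 and 2. The Cbfb::MYH11 tumors were above every other library, also in TPM. The log2 fold change in MLL over Cbfb::MYH11 tumors was −1.47 ± 0.31 (SE, adjusted p = 0.0082 from edgeR). It was lost without Cbfb::MYH11 30 (adjusted p = 0.059 from edgeR) or 27 (0.055), and kept with plain totals.

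The WT libraries differed from each other in a way that went with transcript length. Of 41 members 25 were higher in WT 1, as were 7117 of the 14875 genes tested. The log2 ratio of WT 1 over WT 2 had a Spearman correlation of −0.62 with transcript length over the 41 members. Over all 14875 genes the correlation was −0.56, and both are descriptions over genes of the same pair of libraries. Length here is the one deposited for WT 1. By it Rpa3 was the shortest member with 670 bases and a log2 ratio of 1.45. Pola1 was the longest with 5341 bases and a log2 ratio of −0.56. Single members departed from the trend, as Cdc6 with 4622 bases had 0.11. Pole had the lowest ratio of −0.97. Its deposited length was 2394 bases but its exonic bases were 11160, so its place in the trend is unclear. The cause was not tested, and every fold change over WT rests on these libraries.

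**Figure D4:**
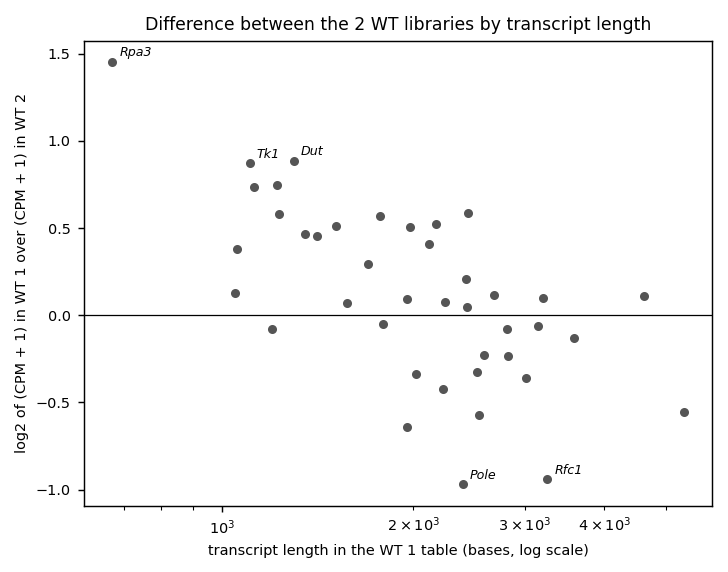
Each point is 1 of the 41 genes, with the transcript length deposited for WT 1 on a log axis and the log2 ratio of CPM + 1 in WT 1 over WT 2. The points slope down with length, from Rpa3 at 1.45 to Pola1 at −0.56, with Pole at −0.97 the lowest.

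Genes of related processes were set beside the members, to be read against the shares of all genes. By edgeR 2.03%, 1.56% and 6.88% of all genes fell in the MLL::AF9, the MLL::ENL and the Cbfb::MYH11 tumors over WT. In Cbfb::MYH11 tumors over WT 3.54% rose. An unadjusted p under 0.05 was reached by 24.5%, 22% and 27.4% of all genes. Of 41 other replication genes, such as further origin recognition subunits and chromatin assembly factors, 3 fell in MLL::AF9 tumors over WT (Orc2, Pole3 and Rnaseh2a), 1 in MLL::ENL tumors (Chtf8, part of another clamp loader) and none in Cbfb::MYH11 tumors by edgeR or limma, with 4 at an unadjusted p under 0.05 and 1 by DESeq2. Their medians were −0.45, −0.17 and 0.02. In MLL over Cbfb::MYH11 tumors 6 fell (12.5% of all genes did) and none rose by edgeR (13.2% of all genes did). At an unadjusted p under 0.05, 2 were higher. DESeq2 called 2 higher (19% of all genes) and limma 1 (10.6%). The 4 with the largest change were Chaf1b of the chromatin assembly complex (log2 fold change −1.73), Rnaseh2a (−1.45), Orc5 (−1.39) and Dctpp1 (−1.35).

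Of 23 genes that control S phase, 3 fell in MLL::AF9 tumors over WT (E2f4, Ccne1 and Ccna2) and 2 in MLL::ENL tumors (E2f4 and Ccne1). In Cbfb::MYH11 tumors over WT Tfdp2, Ccne1 and E2f2 fell and Rbl2, a repressor of E2F targets, rose. Ccne1, the cyclin that starts S phase with Cdk2, was at 14.8, 20.7 and 17.8 CPM in MLL::AF9 2, 47 and 42 and at 24.5, 27.3 and 18.9 CPM in MLL::ENL NO, RL and L. It was at 10.2 and 7.67 CPM in Cbfb::MYH11 30 and 27, against 104 and 70.9 CPM in WT 1 and 2. All tumors were far below WT, in TPM too, with log2 fold changes of −2.30, −1.89 and −3.29 in the MLL::AF9, the MLL::ENL and the Cbfb::MYH11 tumors (adjusted p = 0.0071, 0.015 and 7.4e-04 from edgeR).

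Of 24 mitosis and spindle genes none passed in MLL::AF9 tumors over WT by edgeR (7 at an unadjusted p under 0.05, 4 by DESeq2, 2 by limma) and none in MLL::ENL tumors (5, 3 and 0). In Cbfb::MYH11 tumors Aurka and Birc5 fell. Their medians over WT were −0.29, −0.14 and −0.38 in the MLL::AF9, the MLL::ENL and the Cbfb::MYH11 tumors, and 0.17 in MLL over Cbfb::MYH11 tumors, where the replication genes had −0.48. The mean log2 level of the replication genes minus that of the mitosis genes was −0.75, −0.10 and −0.38 in MLL::AF9 2, 47 and 42, against 0.37 and −0.02 in WT 1 and 2. It was −0.69, 0.17 and 0.09 in MLL::ENL NO, RL and L, and −0.02 and 0.75 in Cbfb::MYH11 30 and 27. The MLL::AF9 tumors were all below both WT libraries, and the other models overlapped WT.

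**Figure D5:**
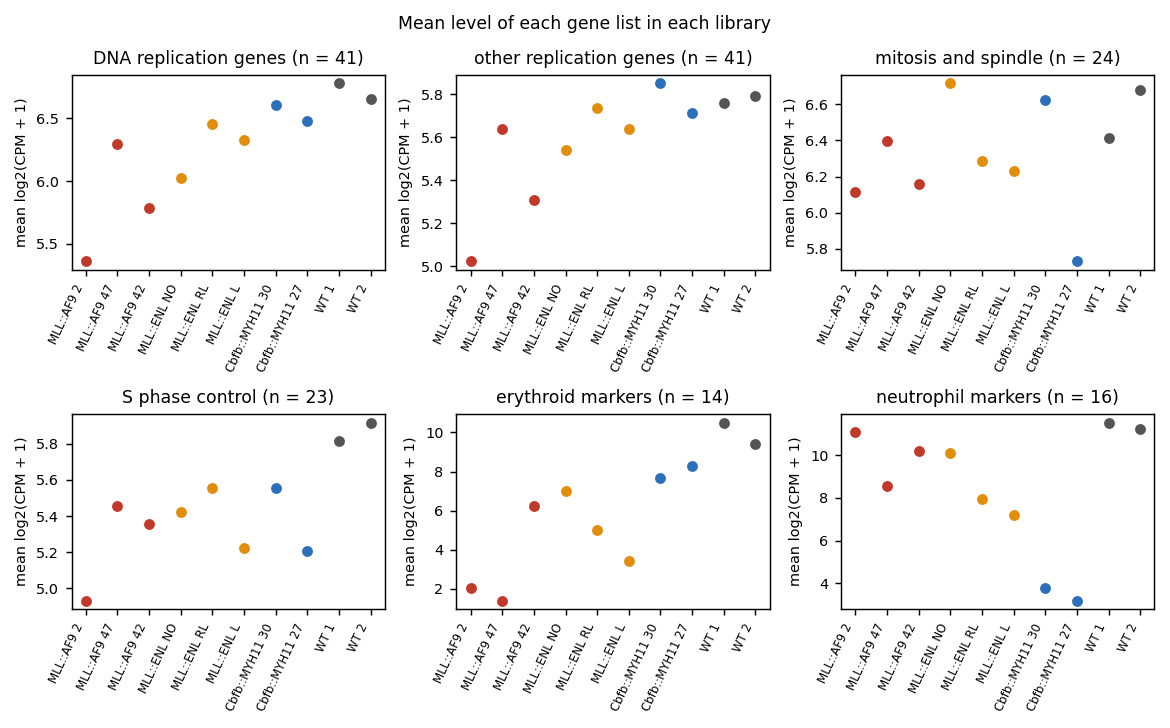
Each panel gives the mean log2(CPM + 1) of a gene list in each of the 10 libraries (points, colored by group). The replication genes are lowest in MLL::AF9 2, at 5.36, and highest in WT 1, at 6.78, while the erythroid markers are highest in WT 1 and the neutrophil markers lowest in both Cbfb::MYH11 tumors.

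Markers of other cells moved with the groups. The 14 erythroid markers summed to 95.1 to 6696 CPM in MLL::AF9, 578 to 11203 in MLL::ENL and 6546 to 12307 in Cbfb::MYH11 tumors, against 44855 and 210704 CPM in WT 2 and 1. The 16 neutrophil markers summed to 25956 to 165381 CPM in MLL::AF9, 7364 to 71917 in MLL::ENL and 378 to 391 in Cbfb::MYH11 tumors, against 94963 and 151105 CPM in WT 2 and 1. The B, T and NK cell markers summed to 58.9 to 1286, 39.1 to 148 and 6.45 to 28.5 CPM in the MLL::AF9, the MLL::ENL and the Cbfb::MYH11 tumors, against 269 and 498 CPM in WT 2 and 1. Of the neutrophil markers 15 of 16 fell in Cbfb::MYH11 tumors over WT, and 14 were higher in MLL over Cbfb::MYH11 tumors. Of the erythroid markers 3 of 14 fell in MLL::AF9 tumors over WT and 1 did in MLL::ENL tumors, and 5 were lower in MLL than in Cbfb::MYH11 tumors. Among the markers at 0, Gata1 had no count in MLL::AF9 2 or 47, Epor none in MLL::AF9 2, Rhag none in MLL::AF9 47, Ncr1 and Klrb1c none in MLL::ENL NO and Trac none in Cbfb::MYH11 27. The part of these cells in the replication transcripts was not tested.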

How the data were processed

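RNA was sequenced from 10 mice, 1 library each, so p-values measure the spread between these mice. Per the submitters' processing notes the authors used FastQC, STAR and RSEM with the build mm10, with versions and strand setting not given in the sources used here. The deposited tables hold expected counts, TPM and FPKM (FPKM not used here), and 93 repeated symbols were kept as separate entries. The expected counts deposited by the authors were rounded to whole numbers and tested with edgeR 4.0.16 (TMM, filterByExpr, glmQLFit robust, glmQLFTest) in R 4.3.3, all 10 libraries in 1 fit with 6 residual degrees of freedom, Benjamini-Hochberg over 14875 genes. Deposited TPM served for levels between genes. Alternatives were DESeq2 1.42.0, limma 3.58.1, other scaling, filter and sample choices, and each library left out. The no-TMM scaling and the overlapping genes shown were chosen after seeing the data. Gene positions are those in the deposited tables, and exon overlap is from GENCODE M21. The members and lists were chosen with earlier results of these data known. Full values are given for members that passed in at least 1 of 5 comparisons, at most 8 a comparison, plus Mcm2, Pcna and Rrm2, and for at most 4 genes of another list. Values after ± are SDs between libraries or standard errors from the edgeR fit, as marked. Library totals of 12134917 to 20510574 give every member at least 42 counts.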

Additional observations from a re-analysis of the deposited data

Results flagged for a closer look

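For 7 genes the edgeR test showed a difference between MLL and Cbfb::MYH11 tumors, where selection and Poly IC also go with the group. Of the members 14.6% were lower in MLL tumors and 2.44% higher, against 12.5% and 13.2% of all genes. The log2 difference was 0.99 for Cdc45 and −1.41 for Pola1, −1.34 for Rfc2, −0.82 for Rfc4, −0.90 for Rpa1, −0.77 for Rrm1 and −1.47 for Dut. Pola1, Rfc2, Rpa1 and Dut lay, with TMM scaling, above WT on average in Cbfb::MYH11 tumors and below it in the MLL tumors, while Rfc4 and Rrm1 lay below WT in both. The values for Rfc2 and Pola1 rest on Cbfb::MYH11 27 and 30, as −0.69 and −1.03 without them.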

How the results depend on the processing

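With 2 or 3 mice a group, calls near the threshold depended on the tool and on single libraries. Members lower in MLL::AF9 tumors over WT numbered 5, and 14 by DESeq2, 8 by limma, 8 without the filter, 1 with only the groups compared, 0 with plain library totals and 0 to 6 with a library left out. Members lower in MLL::ENL tumors over WT numbered 1, and 5 by DESeq2 (5.99% of all genes), 2 by limma (3.31%), 0 without the filter, 0 with plain totals and 0 to 4 with a library left out. In Cbfb::MYH11 tumors over WT 1 was lower, and 2 by DESeq2 (11.5% of all genes), 2 with only those groups (13.3%), 0 with plain totals and 0 to 2 with a library left out. By DESeq2 1 was higher (7.91% of all genes) and by edgeR 0. In MLL over Cbfb::MYH11 tumors 6 were lower, and 10 by DESeq2, 2 with plain totals and 1 to 12 with a library left out, while 1 was higher, and 0 with only those groups, 0 with plain totals and 0 to 1 with a library left out. The mean log2 level over WT was −0.90 in MLL::AF9 tumors (−0.21 in TPM), −0.45 in MLL::ENL tumors (0.25 in TPM, −0.10 with plain totals) and −0.18 in Cbfb::MYH11 tumors (0.48 in TPM, 0.17 with plain totals). With a library left out it was −1.15 to −0.68, −0.54 to −0.33 and −0.24 to −0.11. The log2 fold change of Mcm2 in MLL::ENL tumors was −0.34 and turned to 0.046 with plain totals. The cause was not tested. DESeq2 size factors in edgeR, and leaving hemoglobin, S100a8, S100a9 and mitochondrial transcripts out, left each count within 1.5 times. No paired analysis was possible because each library came from a different mouse. Plain totals were added after seeing the data.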
